A study of Mus musculus with 2 samples.

Results

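The PAR-CLIP sites described here lie in nuclear genes for small structural RNAs: the spliceosomal snRNAs (U1, U2, U4, U5, U11), the 7SL RNA, the Y RNAs, and the RNA subunits of RNase P and RNase MRP. They were chosen from the called sites themselves, as the sites outside the mitochondrial genome that overlapped by at least 1 nt, on the same strand, a GENCODE vM21 gene of type snRNA, misc_RNA or ribozyme. A site that also overlapped an rRNA gene would have been left out, and 0 sites were. Of 552 sites in all, 504 were nuclear, and 49 of these met the rule (9.72%, 95% Wilson interval 7.43% to 12.6%, counting error only). The interval treats sites as independent, which sites in identical copies of an RNA are not, so it is likely too narrow. The 49 sites lay in 45 genes, 40 of the sites in genes of type snRNA, 5 in misc_RNA genes and 4 in ribozyme genes.

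The sites came from 1 PAR-CLIP library of LRPPRC-FLAG in mouse embryonic fibroblasts (MEFs), connective-tissue cells grown from embryos of Lrpprc-FLAG transgenic mice. By the labels, the cells received doxycycline at 2 µg/ml over 72 h in the experimental and the control sample alike. In PAR-CLIP, 4-thiouridine taken up into new RNA is crosslinked to bound protein with ultraviolet light, the protein is recovered through its tag, and T-to-C changes in the reads mark the crosslinked bases. Cells, not isolated mitochondria, were lysed with digitonin, and the lysates were cleared by centrifugation. How much nuclear or cytoplasmic RNA entered the lysate was not measured here. Control sites were not analysed here, and with 1 library there were no replicates and no test. The list holds no expression values, so the fibroblast label could not be checked against marker genes.

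LRPPRC is an RNA-binding protein of the pentatricopeptide repeat family, known for its role in the stability and translation of mitochondrial mRNAs. The snRNAs work in the nucleus as parts of ribonucleoprotein particles: U1 pairs with the 5′ splice site of an intron, U2 with its branch site, U4 holds U6 inactive, U5 contacts the exons, and U11 recognises the 5′ splice site of the rare minor introns. A ring of Sm proteins closes around a short U-rich stretch, the Sm site, of U1, U2, U4, U5 and U11. The 7SL RNA is the scaffold of the signal recognition particle in the cytoplasm, Y RNAs bind the Ro60 protein, RNase P trims the 5′ ends of tRNAs, and RNase MRP cleaves the precursor of rRNA. Most of these RNAs are abundant in dividing cells, and the mouse genome holds many copies of most of them, functional genes and pseudogenes.

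Examples of the snRNAs with a site are shown first, because the position of the site in the RNA is the main value that the list gives. Sequences are the RNA strand of mm10 in DNA letters, 5′ to 3′, from the genome sequence of RefSeq, with the bases in a site in capitals. For U1, U2 and U11 the copy with a gene symbol of its own is printed, and for U4 the copy with the larger covered share. Rnu1a1 lay at chr11:87422867-87423030 on the plus strand, Rnu2-10 at chr11:101658238-101658428 on the plus strand, Gm24265 (a U4 gene) at chr5:115489459-115489599 on the plus strand and Rnu11 at chr4:132270080-132270213 on the minus strand.
Rnu1a1: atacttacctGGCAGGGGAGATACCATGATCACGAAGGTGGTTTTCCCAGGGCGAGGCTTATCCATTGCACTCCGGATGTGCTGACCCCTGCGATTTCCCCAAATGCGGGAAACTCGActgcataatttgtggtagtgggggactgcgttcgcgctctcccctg
Rnu2-10: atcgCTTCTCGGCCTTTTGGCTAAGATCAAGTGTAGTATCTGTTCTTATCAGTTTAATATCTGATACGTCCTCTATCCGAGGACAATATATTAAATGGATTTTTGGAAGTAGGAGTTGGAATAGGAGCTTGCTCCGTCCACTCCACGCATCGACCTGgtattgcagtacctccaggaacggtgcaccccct
Gm24265: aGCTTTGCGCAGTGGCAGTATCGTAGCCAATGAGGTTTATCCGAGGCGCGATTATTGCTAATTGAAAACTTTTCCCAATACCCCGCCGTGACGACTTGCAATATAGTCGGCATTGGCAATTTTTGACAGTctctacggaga
Rnu11: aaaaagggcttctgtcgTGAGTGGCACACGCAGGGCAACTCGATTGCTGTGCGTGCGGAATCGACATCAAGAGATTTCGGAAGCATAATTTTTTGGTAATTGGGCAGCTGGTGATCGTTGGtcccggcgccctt
In each of these 4 RNAs the capitals stop before the 3′ end.

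The Y RNAs and the RNAs of RNase MRP and RNase P are shown in the same way, so that the covered and uncovered ends can be read beside the values. Rny1 lay at chr6:47788069-47788180 on the minus strand and Rny3 at chr6:47781624-47781725 on the plus strand. Rmrp lay at chr4:43492788-43493058 on the minus strand. Of Rpph1 (RNase P RNA), with 319 nt on the minus strand of chromosome 14, 2 stretches are printed, positions 1 to 150 at chr14:50807618-50807767 and positions 170 to 319 at chr14:50807449-50807598.
Rny1: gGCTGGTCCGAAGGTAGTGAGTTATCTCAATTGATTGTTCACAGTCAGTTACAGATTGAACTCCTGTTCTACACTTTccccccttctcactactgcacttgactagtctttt
Rny3: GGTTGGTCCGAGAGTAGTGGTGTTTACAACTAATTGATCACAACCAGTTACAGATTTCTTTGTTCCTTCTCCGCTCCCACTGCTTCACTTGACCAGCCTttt
Rmrp: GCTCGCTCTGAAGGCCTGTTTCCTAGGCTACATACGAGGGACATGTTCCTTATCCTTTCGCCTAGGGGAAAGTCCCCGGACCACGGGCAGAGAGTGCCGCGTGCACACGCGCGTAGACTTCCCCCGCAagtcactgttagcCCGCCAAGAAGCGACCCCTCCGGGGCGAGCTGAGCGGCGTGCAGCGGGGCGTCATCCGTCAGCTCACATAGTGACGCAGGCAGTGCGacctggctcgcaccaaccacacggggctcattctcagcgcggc
Rpph1 1 to 150: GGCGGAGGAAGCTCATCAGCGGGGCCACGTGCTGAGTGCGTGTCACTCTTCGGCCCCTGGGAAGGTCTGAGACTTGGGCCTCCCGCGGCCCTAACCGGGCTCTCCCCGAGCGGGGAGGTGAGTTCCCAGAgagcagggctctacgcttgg
Rpph1 170 to 319: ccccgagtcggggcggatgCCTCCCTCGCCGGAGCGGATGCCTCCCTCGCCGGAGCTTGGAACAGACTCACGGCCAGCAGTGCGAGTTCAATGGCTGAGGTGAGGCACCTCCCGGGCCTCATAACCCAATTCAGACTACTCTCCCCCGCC
Rny3 was covered from its first base, and the capitals of Rpph1 reach its last base.

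Of the 1969 nuclear genes of the 3 types, 45 (2.29%) had a site on their strand. Among all other nuclear GENCODE genes, 240 of 53530 (0.448%) had a site. Both shares describe the list that chose the members, and nothing is read from their difference. Of the 49 sites, 46 lay wholly inside the annotated RNA and 3 reached past it, by at most 3 nt. These 3 were the 5′ site of Gm25813 (2 nt before the gene), the 5′ site of Rpph1 (3 nt before it) and the 3′ site of Rpph1 (1 nt past it). No member was near the 1-nt limit, and the smallest share of a site inside its gene was 97.4%. Sites on the opposite strand of these genes numbered 0. Since 10 of the 45 genes lie inside another gene on the same strand, such as the U1 genes Rnu1a1 and Gm22068 in Tex14 and 3 U2 genes in D230017M19Rik, position alone cannot tell the small RNA from the host transcript there.

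The families differed in how many of their annotated copies had a site. U1 had 16 sites in 15 of 202 genes, U2 had 14 sites in 13 of 43, and U5 had 7 sites in 7 of 11. U4 had 2 sites in 2 of 42 genes and U11, of the minor spliceosome, 1 site in 1 of 5. The major spliceosomal RNAs other than U6 therefore made up most of the list. Outside the spliceosome, 7SL had 3 sites in 3 of 14 genes, the Y RNAs 2 sites in 2 of 19, RNase P RNA 2 sites in 1 of 15, and RNase MRP RNA 2 sites in its 1 gene. Most annotated copies over these families are diverged from the reference copy, and the shares over all copies count those too.

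No site lay in a U6 gene, although U6 is the largest of these families with 962 annotated genes. U6 is the snRNA at the catalytic centre of the spliceosome. No site lay in the 150 genes of 7SK, the RNA that holds back the elongation factor P-TEFb, in the 61 genes of U7, which acts in the 3′ processing of histone mRNA, or in the 6 genes of U12 and the 23 of U6atac, both of the minor spliceosome. The 2 vault RNA genes and the 413 genes given no family had no site either. The annotation held 0 genes assigned to U4atac.

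The width of the member sites ranged from 34 to 156 nt, with its median at 108 nt and its quartiles at 81 and 132 nt. Among the other 455 nuclear sites it ranged from 15 to 849 nt (median 75 nt), and among the 48 mitochondrial sites from 58 to 688 nt (median 147.5 nt). A width of exactly 75 nt was found in 1 member and in 127 of the other nuclear sites. The widest member sites were 3 of 156 nt, in the U2 genes Gm23472, Gm23849 and Gm24950, and each covered positions 2 to 157 of 191. The narrowest was the 34-nt site of the U1 gene Gm25679. Width is bounded here by the length of the RNA, which was 102 nt for Rny3 and 319 nt for Rpph1, and these widths were not tested against those of the other sites.

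In most of the genes the sites reached nearer to the 5′ end of the RNA than to its 3′ end. Of the 49 sites, 26 began within 5 nt of the annotated 5′ end and 2 ended within 5 nt of the annotated 3′ end. In 36 of the 45 genes more bases were left uncovered at the 3′ end than at the 5′ end, in 7 fewer, and in 2 as many. The median uncovered stretch was 34 nt at the 3′ end and 2 nt at the 5′ end. Among the 38 snRNA genes alone, the uncovered 3′ stretch ran from 9 to 99 nt and was the longer end in 30. In others, such as Gm24305 of U1 (68 nt at the 5′ end against 21) and Rnu11 (17 against 13), it was the shorter. Of the 45 genes, 15 are U1 copies and 13 are U2 copies. Reads of identical copies cannot be told apart, so these counts and medians are not of separate observations.

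**Figure D1:**
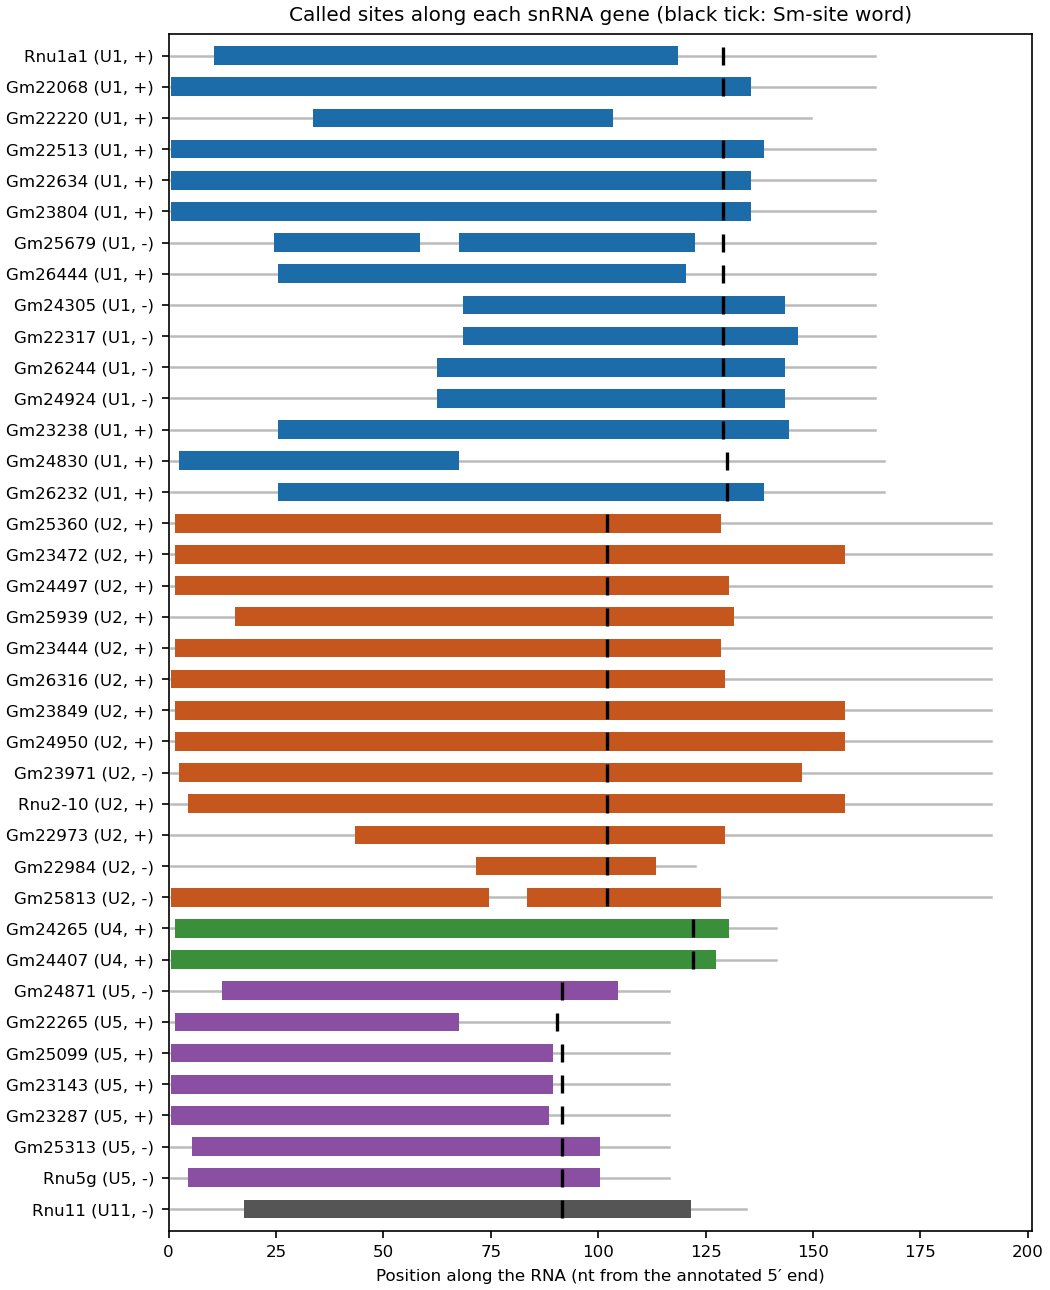
Called sites (coloured bars) along the 38 snRNA genes with a site, by family, with position in nt from the annotated 5′ end on the x axis, the grey line showing the length of the gene, the sign its strand and the black tick the centre of the Sm-site word where the gene holds it. Bars stop at least 9 nt short of the 3′ end in all 38 genes, and cross the Sm-site word in all 13 U2 genes but in 10 of the 14 U1 genes that hold it. Copies within a family are not separate observations.

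In U1 the covered share was 61.9% of the bases of the 15 genes (1517 of 2449), the lowest among the snRNA families. Gm22513 had the largest share (84.1%, positions 1 to 138 of 164), followed by Gm22068, Gm22634 and Gm23804, each covered from 1 to 135 (82.3%). At the other end were Gm24830, covered from 3 to 67 of 166 (39.2%), and Gm24305, from 69 to 143 of 164 (45.7%). Copies of nearly the same sequence thus had sites at different places. Aligned to Rnu1a1, positions 69 to 104 were covered in 14 of 15 copies, and the last 18 positions, after 146, in none. These counts are of copies that are not separate observations. The whole sequence of 15 of the 16 U1 sites was found exactly more than once in the genome.

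Among the remaining U1 copies, Rnu1a1 was covered from 11 to 118, Gm26444 from 26 to 120, Gm23238 from 26 to 144 and Gm26232 from 26 to 138. Gm22317 was covered from 69 to 146, and Gm26244 and Gm24924 both from 63 to 143. Gm25679 held 2 sites, at 25 to 58 and at 68 to 122. The 10 U1 copies on the plus strand had their first covered base between positions 1 and 34, and the 5 on the minus strand between 25 and 69. The 2 ranges overlap between 25 and 34. As the copies are not separate observations, nothing is read from the strands.

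The 5′ splice-site word ACTTACC, which pairs with introns, stood at positions 3 to 9 of 14 of the 15 U1 copies and was covered in 5. The Sm-site word ATTTGTG was held by 14 copies too, at 126 to 132 in Rnu1a1, and was wholly covered in 10. Words were searched on the strand of the gene only. Of the 1967 small RNA genes searched, 3.71% held ACTTACC and 9.35% held ATTTGTG. The printed Rnu1a1 is a copy in which neither word was covered.

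In U2 the covered share was 68.0% (1641 of 2414 bases in 13 genes). The largest shares, 81.7%, were those of Gm23472, Gm23849 and Gm24950, and Rnu2-10 was covered from 5 to 157 (80.1%). Of the 14 U2 sites, 10 began at positions 1 to 5. Their ends fell into groups, with 7 ending at 128 to 131 and 4 at 157. The last 34 positions of the RNA lay in no site of any copy, and 20.6% of their bases were U.

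The Sm-site word ATTTTTG, at positions 99 to 105 of U2, was wholly covered in all 13 copies with a site. These copies are not separate observations. The whole sequence of 9 of the 14 U2 sites was found exactly more than once in the genome. A read that matched several copies was kept at 1 place. The branch-site word GTAGTA, at 33 to 38, was held by 12 copies and covered in 11, the exception being Gm22973, covered only from 44 to 129. Over the 1967 small RNA genes, 2.90% held ATTTTTG and 3.10% held GTAGTA. Gm25813 had 2 sites, at 1 to 74 and 84 to 128, the second of which held the Sm-site word. All 13 copies were covered at 33 positions between 72 and 113.

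**Figure D2:**
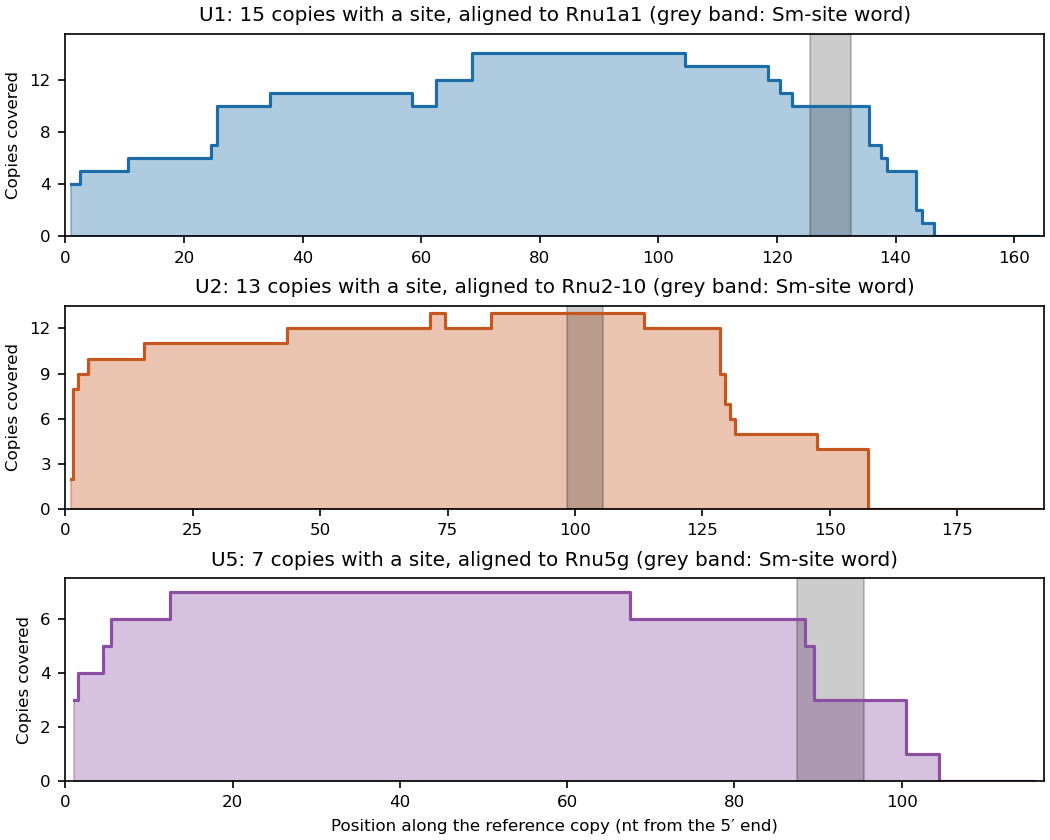
Number of gene copies with the position in a called site (y axis) against position in nt along the reference copy (x axis) for U1 (15 copies), U2 (13) and U5 (7), with the Sm-site word as a grey band. U1 peaks at 14 copies between 69 and 104, U2 falls in steps after 128 and 157, and U5 is covered in all 7 copies from 13 to 67. Copies are not separate observations, because reads that match several copies cannot be told apart.

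U4 and U5 were covered over more of their length. Both U4 genes lay within 0.936 kb on chromosome 5 (115489459 to 115490394), with Gm24265 covered from 2 to 130 and Gm24407 from 1 to 127 of 141, together 90.8% of their bases. Their Sm-site word, at 119 to 125, was covered in both. The stem of U4 that pairs with U6 lies in its 5′ part, which the sites spanned.

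The 7 U5 genes were covered over 75.7% of their bases. Rnu5g had the largest share (82.8%, positions 5 to 100 of 116), before Gm25313 (81.9%, 6 to 100) and Gm24871 (79.3%, 13 to 104). Gm25099, Gm23143 and Gm23287 were covered from their first base to 89, 89 and 88, and Gm22265 from 2 to 67. The loop word CTTTTAC at 39 to 45 of Rnu5g, in the loop that contacts the exons, was covered in 7 of 7 copies, as was every position from 13 to 67. Of the small RNA genes, 1.02% held the word, a share that does not say how often it was covered. Here too the copies are not all separate observations, as 2 of the 7 U5 sites had a sequence found more than once. The Sm-site word of U5 has 6 T (ATTTTTTG, at 88 to 95, searched for after the sequences had been seen) and was wholly covered in 3 copies, in part in 3 and not in 1. It was held by 1.27% of the small RNA genes.

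Rnu11, the U11 gene, was covered from 18 to 121 of 134 (77.6%). Its Sm-site word ATTTTTTG, at 88 to 95, was covered. The first 17 bases, at the end where U11 pairs with the 5′ splice site, were outside the site. The minor spliceosomal RNA Rnu12 had no site.

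**Figure D3:**
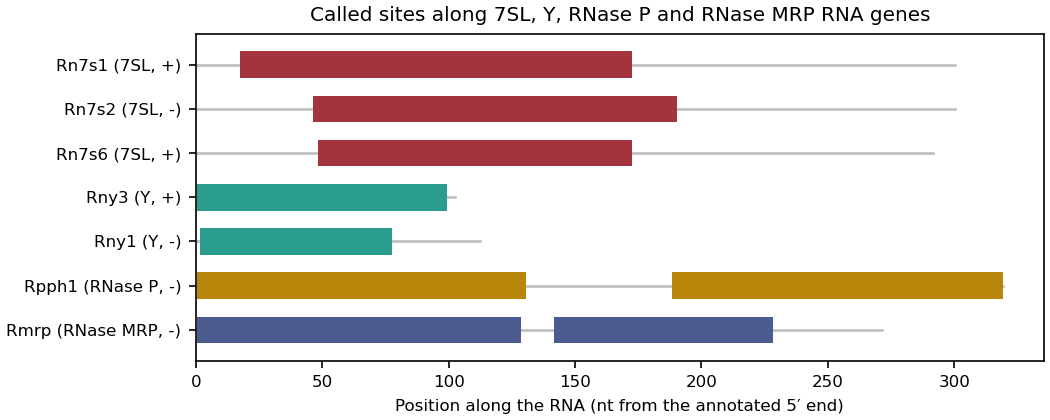
Called sites (coloured bars) along the 7SL, Y, RNase P and RNase MRP RNA genes, with position in nt from the annotated 5′ end on the x axis, the grey line showing the length of the gene and the sign its strand. The 7SL sites lie between 18 and 190, Rpph1 and Rmrp have 2 sites each, and Rny3 is covered over 97.1% of its length.

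The 3 7SL genes were covered over 47.5% of their bases, the lowest share of any family. Rn7s1 was covered from 18 to 172 of 300 (51.7%), Rn7s2 from 47 to 190 of 300 (48.0%) and Rn7s6 from 49 to 172 of 291 (42.6%). All 3 shared positions 49 to 172 of Rn7s1. The last 110 bases lay in no site, and 18.2% of these were U against 20.3% of the covered bases of the 3 genes.

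Both Y RNA genes with a site lay within 6.56 kb on chromosome 6. Rny3 was covered from 1 to 99 of 102 and Rny1 from 2 to 77 of 112 (67.9%). The word GGTCCGA, in the stem that Ro60 binds, stood at 5 to 11 of both and was covered in both. In the whole set of 1967 genes only 3 (0.153%) held it. The run of 4 T at the 3′ end, where RNA polymerase III stops, was covered by 1 base in Rny3 and not in Rny1, and a run of TTTT somewhere in the gene was held by 63.3% of the 1967 genes.

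Rpph1 and Rmrp, the RNA subunits of RNase P and RNase MRP, had 2 sites each. The sites of Rpph1 ran from 1 to 130 and from 189 to 319, which leaves a gap of 58 bases (81.8% covered). The sites of Rmrp ran from 1 to 128 and from 142 to 228 of 271 (79.3% covered). These RNAs are poor in U, with 16.0% U over Rpph1 and 17.0% over Rmrp. Their covered shares were above the shares pooled over the U1 genes (61.9%) and the U2 genes (68.0%). Single copies, which are not separate observations, reached up to 84.1% in U1 (Gm22513) and 81.7% in U2 (Gm23472). Whether U content bears on the covered share was not tested.

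A call needs U, so the base composition of covered and uncovered sequence was compared within the same genes. Over the 45 genes, 28.7% of 5207 covered bases and 24.5% of 2579 uncovered bases were U. The order was not the same in every family. The covered bases held more U in U2 (34.9% against 24.2%), U4 (29.3% against 19.2%), U11 (26.9% against 23.3%), 7SL (20.3% against 17.5%) and RNase P RNA (16.9% against 12.1%). They held less U in U1 (24.3% against 25.9%), U5 (35.9% against 39.1%), the Y RNAs (34.3% against 41.0%) and RNase MRP RNA (16.7% against 17.9%). Some uncovered sets were small, with 26 bases in U4, 30 in U11 and 39 in the Y RNAs, so a few bases set the order there. Bases of 1 site are not independent, and no test was made.

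Many of these RNAs have identical copies, and the aligner kept 1 place for a read that matched several. The whole sequence of 29 of the 49 sites (59.2%) was found exactly more than once in mm10. Over all 49 sites the median was 3 places and the maximum 22. Of 443 other nuclear sites on chromosomes, 53 (12%) were found more than once. For 26 of the 29 repeated sequences, every place overlapped a called site. The 3 exceptions were the 34-nt site of Gm25679, with 22 places of which 10 had a site, and the sites of Gm24830 and Gm26232, each with 6 places of which 2 had a site.

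By family, 15 of 16 U1 sites, 9 of 14 U2 sites, 2 of 7 U5 sites and 3 of 3 7SL sites were found exactly more than once. The sites of U4, U11, the Y RNAs, RNase P RNA and RNase MRP RNA were each found exactly in 1 place. Reads were aligned with mismatches allowed, and at 90% identity over 90% of the site 45 of the 49 sites were found more than once. Both U4 sites and the sites of Rnu11 and Rny1 then had 3 places and the 5′ site of Rpph1 had 4, and the sites of Rny3 and Rmrp and the 3′ site of Rpph1 still had 1. Of the 49 sites, 31 held no word of 20 nt that was unique in the genome. Rmrp was the most distinct, with 98.8% of its words unique, beside 68.7% for Rpph1, 66.3% for Rny3, 61.7% for Rnu11 and 40.9% for Rny1. In the U1 genes with the sequence of Rnu1a1, in the U2 genes with that of Rnu2-10, and in Rn7s1 and Rn7s2, the share was 0%.

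**Figure D4:**
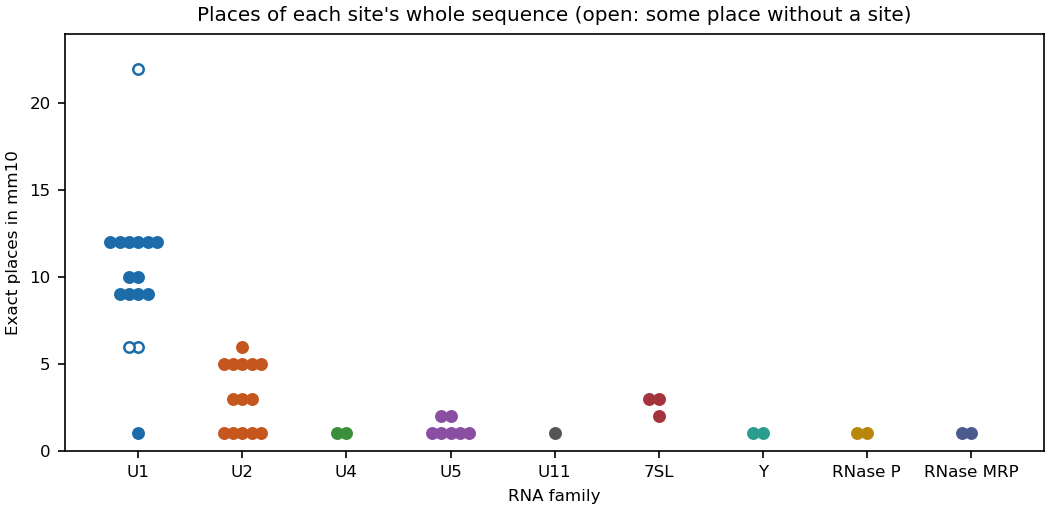
Number of places in mm10 at which the whole sequence of a site was found exactly (y axis) for each of the 49 sites (points) by RNA family (x axis), with open points for sequences that had a place without a called site. U1 sites reach 22 places, U2 sites 6 and 7SL sites 3, and the U4, U11, Y, RNase P and RNase MRP sites are at 1.

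Sites of identical genes were the same in some cases and differed in others. Reads of identical genes cannot be told apart, so the positions below are those called and not traits of a copy. The 7 U1 genes with the sequence of Rnu1a1 all had a site, and 78 to 135 of their 164 bases were covered (47.6% to 82.3%), with starts from 1 to 69, and Gm22068, Gm22634 and Gm23804 among them shared positions 1 to 135. Of 3 identical U1 genes on chromosome 3, Gm24830 had 65 bases covered, Gm26232 had 113, and Rnu1b6 had no site. The 4 U2 genes identical to Rnu2-10 were closer to each other, with 145 to 156 bases covered and ends from 147 to 157, and Gm23849 and Gm24950 were both covered from 2 to 157. Gm23472 and Gm23444, also identical U2 genes, were both covered from position 2, to 157 and to 128. Rn7s1 and Rn7s2 had 155 and 144 bases covered.

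Copies close to the reference copy of their family held nearly all the sites. At 95% identity or more to the reference copy of the family, 14 of 23 U1 genes, 12 of 13 U2 genes, 2 of 2 U4 genes and 2 of 2 7SL genes had a site. Below 90% identity, 1 of 169 U1 genes, 1 of 28 U2 genes and 0 of 39 U4 genes had a site. The U4 reference, Gm24265, was itself chosen as the U4 copy with the largest covered share. The U4 counts were therefore in part set by that choice. In U5, 2 of 2 genes at 95% or more and 5 of 6 between 90% and 95% had a site. The diverged exceptions, named after their values were seen, were Gm22220 (75.6% identity to Rnu1a1), Gm22984 (58.1% to Rnu2-10, over the longer of the 2 sequences, since it has 122 nt) and Rn7s6 (84% to Rn7s1).

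In Gm22220 the site of 70 nt was itself a sequence found in 12 places, all with a site, and its covered bases held 0 differences from Rnu1a1. In Gm22984 the 42-nt site was found in 1 place and held 2 differences from Rnu2-10. Across all families the covered bases held 36 differences from the reference copy, in 16 copies. Of these, 9 had C in the reference and T in the copy and 8 had T in the reference and C in the copy, which is the change that also marks a crosslink.

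Some genes with a site lay near each other within their family. Each span below was drawn from the first to the last gene with a site, with gaps of at most 100 kb, so its end genes always have a site, and the counts say only that no gene of the family without a site lay between them. On chromosome 12, 7 of 7 U1 genes between 54696782 and 54738622 (41.8 kb) had a site, and on chromosome 11 the 2 U1 genes of 2 between 87422867 and 87426879. For U2, 4 of 4 genes between 72226240 and 72255198 on chromosome 1 and 5 of 5 between 101604850 and 101658428 on chromosome 11 had a site. The 3 U5 genes of 3 on chromosome 4 (117189942 to 117210959) and 2 of 2 on chromosome 9 completed the snRNA spans with U4 on chromosome 5. Counting the Y RNA pair, 27 of the 45 genes lay in such a span.

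The RNAs without a site were compared with the others in the same measures. Rnu6 has 107 nt, its sequence stood in 43 identical places, and all 88 of its 88 words of 20 nt were found in over 100 places. The aligner had a setting for reads with over 100 places, but it reported 1 place per read below that number too. None of 184 U6 genes with at least 95% identity had a site. Among member sites, 12 held some word in over 100 places, 11 of them in U2 and 1 in Rn7s1. In the U2 sites such words ran from 2 of 97 in Gm25939 to 17 of 57 in the 5′ site of Gm25813. In the site of Rn7s1 they were 3 of 136, beside 88 of 88 in Rnu6. The part of this difference in the lack of U6 sites was not tested.

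Rn7sk was found in 1 place, 21.5% of its words were unique, and its commonest word had 34 places. Its U share was 22.4% and that of Rnu6 24.3%, while the genes with a site ranged widely, from 16.0% for Rpph1 to 37.9% for Gm22265. Whether U content bears on the lack of a site was not tested. Rnu7 (1 place, 44.2% of words unique) and Rnu12 (1 place, 11.4% unique) had no site either. The depth of reads at any of these genes is not in the list beyond the minimum of 5 reads that the caller asked for, so an RNA without a site may be unbound or too thinly read, and its level in these cells was not measured here.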

How the data were processed

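The list of sites was made by the authors from 1 library, and the following comes from the labels and the methods of the study. Libraries carried random barcodes, by which PCR duplicates were removed, and adapters were trimmed with cutadapt 1.10, keeping reads of at least 14 nt. Reads were aligned with Bowtie 1.12 to mm10 with nuclear copies of mitochondrial DNA masked, allowing 2 mismatches in the seed, reporting 1 best place per read and 1 place for reads with over 100. Regions were called with BMix at a minimum coverage of 5 and a posterior probability of 95%. The deposited list gives chromosome, start, end and strand. In the deposited list every score and every name is 0, which leaves the depth behind a site unknown beyond that minimum.

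From there, starts were converted to 1-based positions and overlaps were taken on the same strand with GENCODE vM21 genes. A gene's family came from its name, from the RefSeq product it overlapped, or from its best blastn 2.17.0 match to a named copy (70% identity or more, over 50% of the gene or more). Copies were aligned to 1 reference copy for each family with Biopython 1.88, and exact copies and words of 20 nt were counted on both strands of mm10. Intervals are 95% Wilson intervals (statsmodels 0.14.6). Other steps used Python 3.11.15, NumPy 2.4.6, pysam 0.24.0 and matplotlib 3.10.9. The overlap and copy counts were tested on simulated data.

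Named were up to 3 genes for each family with the largest covered share, the genes of the 3 widest sites, genes with 2 sites, and the functional copies Rn7sk, Rn7s1, Rn7s2, Rmrp, Rpph1, Rny1, Rny3, Rnu11, Rnu12 and Rnu7. Other copies were named after their values were seen. The members, families and words were chosen with earlier results of these data known. The alternatives changed the overlap, strand, site width, family assignment and the definition of a copy.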

Additional observations from a re-analysis of the deposited data

How the results depend on the processing

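Of 50 alternative values, 43 stayed within the spread or tolerance set for them and 7 moved. Many of the 43 could not have moved, so the tally does not measure robustness. The smallest share of a site inside its gene was 97.4%, so asking for 50% of the site in the gene removed nothing. No site lay on the opposite strand or in an rRNA gene. Asking for 90% identity kept every U4, U5, U11, RNase P and RNase MRP gene with a site. Asking for 50% of the gene in the site left 31 sites. Restricted to sites no narrower than the median width over all sites (80.5 nt), the covered share was 69.4% in U1, 70.4% in U2, 78.9% in U5 and 97.1% in the Y RNAs. By construction this drops genes with narrow sites. The sites found more than once numbered 45 at 90% identity over 90% of the site and 48 by any word of 20 nt. With the strand ignored or rRNA overlaps kept there were 49 sites, and in snRNA genes only 40. The identity alternative was not run for the Y RNAs, which have 2 reference genes. No paired analysis was possible because the list of sites comes from a single library, and no replicate could be left out. A call depends on U, on depth and on where a read with several places was put, and how far each set the positions was not tested. Control sites were not analysed here, so whether the control sample holds sites in the same RNAs is unknown.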
